A study of Mus musculus and Mus musculus
Oryx dammah with 30 samples.

Results

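The 5 Usp17l genes (Usp17la, Usp17lb, Usp17lc, Usp17ld and Usp17le) and both annotated Tcstv genes (Tcstv1 and Tcstv3) were followed in NT embryos made by fusing somatic cells with cleaving mouse embryos. They were found by gene name in the tables of 3 experiments, where they are 7 of 53023 genes in the four-cell and replication tables and 7 of 55364 in the two-cell table. All recipients were IVF-derived embryos of the C57BL/6 and DBA/2 strains, and all donors were C2C12 cells, a myoblast line of the C3H strain. Every group, controls included, was kept from dividing with 0.1 μg/mL demecolcine and cultured for 24 h after NT. Demecolcine arrests such embryos at G2/M phase, once their DNA is replicated. In the four-cell experiment, NT started at 46 hours post insemination (hpi), and 3 libraries with and 3 without α-amanitin were each made from a pool of 3 embryos. In the replication experiment, 3 libraries of the group D and 3 of the group DR, all without α-amanitin, were each made from a pool of 4 four-cell embryos. NT there was done before or after the DNA replication of the four-cell stage, but the labels do not say which of D and DR is which. In the two-cell experiment, 6 libraries with and 6 without α-amanitin were each made from a pool of 5 two-cell embryos, with NT starting at 21 hpi for some pools and at 30 hpi for others. The paper places NT at 21 hpi before DNA replication. Its columns fall into a set named NT with Am and a set named R with RAm, and their names do not say which set belongs to which age. α-Amanitin blocks RNA polymerase II, so the comparison without against with the drug asks which transcripts were made during the culture. Each pool holds embryonic and donor nuclei together, and the gene-level values used here do not separate their transcripts. As in all bulk samples, fewer cells of a kind and less RNA per cell cannot be told apart.

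Usp17l genes encode deubiquitinating enzymes, cysteine proteases that take ubiquitin off other proteins, and the first of them were described as DUB genes induced by cytokines in blood cells. Tcstv genes are named for their variable expression at the two-cell stage, and their products have been tied to telomere length in embryonic stem cells. Both families belong to the burst of transcription that accompanies zygotic genome activation in the mouse, together with Zscan4, Tdpoz and other multicopy genes, and the transcription factor Dux is a known activator of this programme.

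In mm10, Usp17ld lies at chr7:103249737-103252505 on the minus strand and Usp17lc at chr7:103415072-103419880 on the plus strand. Further along chromosome 7 follow Usp17le at chr7:104768049-104777470 and Usp17lb at chr7:104840257-104842603, both on the minus strand, and Usp17la at chr7:104857009-104862667 on the plus strand. Tcstv1 lies at chr13:119893388-119894785 on the minus strand and Tcstv3 at chr13:120316878-120318178 on the plus strand. RefSeq promoters on GRCm38.p6, running from 250 bases before to 50 bases after the annotated start, were matched for 4 of the 7 genes, all of them Usp17l. They are near copies of each other, with 91.7% to 96.8% identical bases in the 6 pairwise alignments. The stretch of 120 bases around the TATA-like box is printed here 5′ to 3′ on the strand of each gene because it shows how alike the sequences beside these annotated starts are. Capitals mark the box.
Usp17la: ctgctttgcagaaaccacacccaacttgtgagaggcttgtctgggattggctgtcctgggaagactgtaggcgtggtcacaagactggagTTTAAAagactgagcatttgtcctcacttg
Usp17lb: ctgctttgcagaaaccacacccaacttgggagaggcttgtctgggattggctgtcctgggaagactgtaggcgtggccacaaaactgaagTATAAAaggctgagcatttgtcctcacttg
Usp17lc: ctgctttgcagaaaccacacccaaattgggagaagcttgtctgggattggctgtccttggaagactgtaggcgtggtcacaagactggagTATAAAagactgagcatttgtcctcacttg
Usp17ld: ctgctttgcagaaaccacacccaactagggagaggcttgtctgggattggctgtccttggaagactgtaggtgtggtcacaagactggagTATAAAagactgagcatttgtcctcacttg
The stretches stand at chr7:104856880-104856999 on the plus strand for Usp17la, chr7:104842585-104842704 on the minus strand for Usp17lb, chr7:103416518-103416637 on the plus strand for Usp17lc and chr7:103252586-103252705 on the minus strand for Usp17ld. The box reads TATAAA in Usp17lb, Usp17lc and Usp17ld and TTTAAA in Usp17la. It begins 31 bases before the annotated start of Usp17lb, 46 before that of Usp17la, 88 before that of Usp17lc and 110 before that of Usp17ld. The RefSeq start of Usp17lc lies 1624 bases from the GENCODE gene start given above, so its stretch falls inside the GENCODE gene. On either strand, the letters TATAAA were found in 13.6% of 32851 RefSeq promoters of the same length. The letters GGATTA, the core motif of Otx and Obox factors, were found in 7.06% of promoters and had no match in these 4 windows.

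The coding sequences of the Usp17l genes were 90.7% to 94.6% identical in 9 of their 10 pairs, and Usp17lc and Usp17ld were 98.4% identical over 1638 bases. The following 60-base stretch of each coding sequence, from GENCODE vM21, is the one in which the most similar pair of genes differs most, and capitals mark the 17 positions at which the 5 genes are not all alike.
Usp17la: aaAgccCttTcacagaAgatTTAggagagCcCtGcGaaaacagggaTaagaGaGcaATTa
Usp17lb: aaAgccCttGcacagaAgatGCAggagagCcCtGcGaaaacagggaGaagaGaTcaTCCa
Usp17lc: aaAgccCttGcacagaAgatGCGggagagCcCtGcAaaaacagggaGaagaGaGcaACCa
Usp17ld: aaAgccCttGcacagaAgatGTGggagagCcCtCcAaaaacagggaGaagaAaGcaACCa
Usp17le: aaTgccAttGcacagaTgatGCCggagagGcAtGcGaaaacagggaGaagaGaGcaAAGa
Even here, a pair of genes could differ at only 3 positions. Tcstv1 and Tcstv3 were 94.7% identical over 510 aligned bases of coding sequence. Their most different 120-base stretch, from base 338 to base 457 of both coding sequences, is shown because it holds 13 differing positions, which are in capitals.
Tcstv1: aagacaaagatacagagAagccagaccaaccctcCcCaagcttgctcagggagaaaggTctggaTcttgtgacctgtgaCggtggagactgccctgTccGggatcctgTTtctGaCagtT
Tcstv3: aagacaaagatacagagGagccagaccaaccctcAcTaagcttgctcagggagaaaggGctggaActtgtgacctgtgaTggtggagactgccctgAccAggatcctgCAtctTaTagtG
How far a read can tell the genes apart was measured on the GENCODE transcripts, with windows of the lengths sequenced, 50 and 25 bases. Windows found in no other gene made up 78.6% of the 50-base windows of Usp17lb, 79.9% in Usp17la, 70.2% in Usp17le, 85.0% in Tcstv1 and 68.6% in Tcstv3. They made up only 55.3% in Usp17lc and 48.9% in Usp17ld, and 50.4% of the windows of Usp17ld were also found in Usp17lc. At 25 bases the share fell to between 27.8% in Usp17ld and 65.1% in Tcstv1. The share of Usp17lb was 63.6%, and that of Tcstv3 was 40.7%. Values of single genes, above all of Usp17lc and Usp17ld, are therefore uncertain where reads could be split between copies, and how the authors counted such reads is not given in the sources used here.

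**Figure D1:**
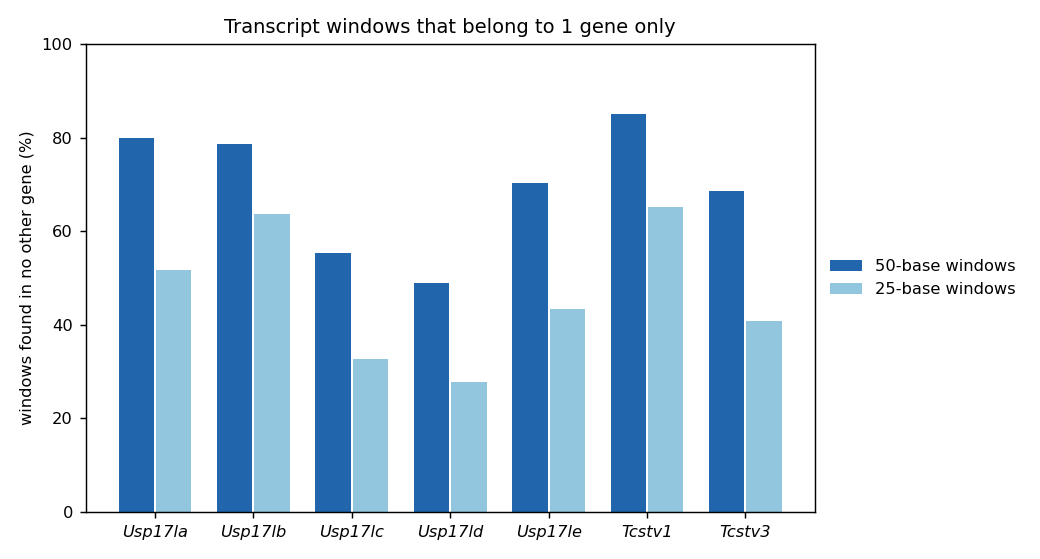
Share of transcript windows (%, vertical axis) found in no other gene of GENCODE vM21, for windows of 50 bases (dark bars) and 25 bases (light bars) in each of the 7 genes. Usp17lc and Usp17ld have the lowest bars, with 55.3% and 48.9% at 50 bases.

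Values are given as FPKM, read counts scaled by gene length and by the total counted in the library, as deposited. The libraries rest on 1136772 to 3101002 counted reads in the four-cell table, 2603947 to 19181385 in the replication table and 4712268 to 10503781 in the two-cell table. Markers of the oocyte and early embryo were counted in all libraries, 9 or 10 of 10 genes in each, with a summed level of 1590 to 16200 FPKM that is mostly Dppa3 apart from RAm1, RAm2 and RAm3. Zar1 of the same list was near 0 in four-cell libraries, with means of 0.0445 FPKM without and 0.0605 FPKM with α-amanitin. Markers of cumulus cells, which surround the oocyte, summed to at most 0.387 FPKM in the four-cell, 0.761 in the replication and 5.04 in the two-cell libraries. Among myoblast genes of the donor, Pax7 was listed at 0 throughout, and the list of 10 summed to 48.2 to 140 FPKM without and 109 to 1120 FPKM with α-amanitin in four-cell embryos, where S100a4 alone gave 1030 FPKM of the highest sum (S8). One library stands apart. D1 of the replication experiment held 2960 FPKM of the 6 genes Zscan4a to Zscan4f, against 0.347 to 2.07 FPKM in the other 5 libraries of that experiment, and the 32 genes of a fixed two-cell list summed to 14000 FPKM in it against 425 to 1720 FPKM in the others.

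In four-cell NT embryos, transcripts of all 7 genes were found without α-amanitin and none with it. Not 1 read of any of the 7 genes was counted in the 3 libraries with α-amanitin, S16, S18 and S8. Usp17lb was the most abundant member of its family in every untreated library, with 14.6 FPKM (52 reads) in S15, 7 FPKM (20 reads) in S17 and 33.5 FPKM (113 reads) in S7. Tcstv3 had 7.89 FPKM (14 reads) in S15, 12.6 FPKM (18 reads) in S17 and 29.7 FPKM (50 reads) in S7. For both genes S7 was the highest library, and the groups did not overlap. Among all genes tested, 27.6% were likewise higher in every untreated library than in any treated one.

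Both rose without the drug. The log2 change, on the scale of log2(FPKM + 1), was 4.02 for Usp17lb (SE 0.55, limma, adjusted p = 0.00661, n = 3 per group) and 3.95 for Tcstv3 (SE 0.51, adjusted p = 0.00511). With treated libraries at 0, the size of these changes depends on the 1 that is added. Over the alternatives run they ranged from 3.48 to 7.25 for Usp17lb and from 3.46 to 7.18 for Tcstv3. With the treated libraries put at 3 reads each, the means were at least 15.7-fold higher for Usp17lb and at least 7.12-fold higher for Tcstv3, and without S7 at least 9.21-fold and 4.36-fold. Calls asked for an adjusted p under 0.05 together with a 4-fold change or more, and 6.2% of the 9884 genes tested were called higher without α-amanitin, against 0.364% called lower. Only these 2 members entered the test, which asked for an FPKM of at least 1 in 3 libraries. They met it through the untreated group alone and so had to differ, and without any 1 of S15, S17 or S7 neither was tested.

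The other 5 members were too low for the test and varied between pools. Usp17la had 3.80, 2.26 and 0 FPKM in S15, S17 and S7, and Usp17lc had 0.179, 0 and 6.97 FPKM. Usp17ld had 6.18, 0.825 and 1.16 FPKM, while Usp17le had 1.33, 0.275 and 0 FPKM. Tcstv1 stood at 1.26, 0.782 and 0.992 FPKM, or 4, 2 and 3 reads. Usp17la and Usp17le were thus absent from the counts of S7, the library in which Usp17lb and Usp17lc were highest. Against 3 reads in each treated library, means were at least 2.93-fold higher for Usp17la, at least 3.19-fold for Usp17lc and at least 2.96-fold for Usp17ld. These limits rest on single libraries, since without S15 they were 1.64-fold for Usp17la and 1.08-fold for Usp17ld, and without S7 they were 4.40-fold for Usp17la and none could be given for Usp17lc. Without S17 that of Usp17lc was 4.79-fold. No fold is given for Usp17le and Tcstv1, whose untreated means are below that limit. An exact permutation test over the 6 libraries, two-sided, can give no p below 0.1, and gave 0.1 for Usp17ld and Tcstv1 and 0.4 for Usp17la, Usp17lc and Usp17le.

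**Figure D2:**
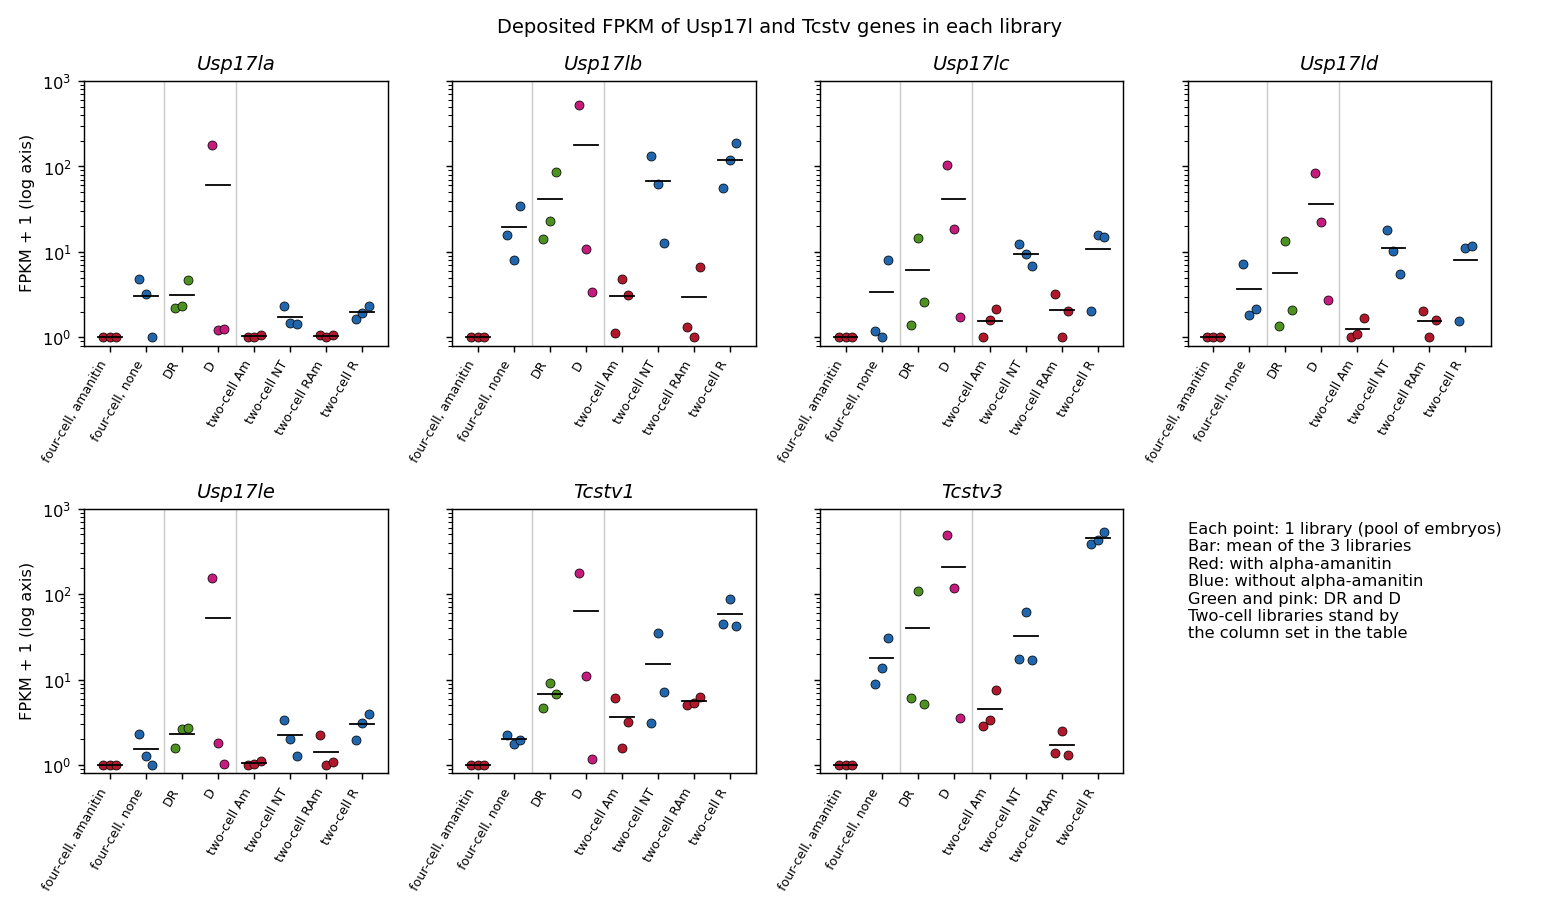
FPKM + 1 on a log axis (vertical) of each gene in 24 libraries, by group (horizontal), each point 1 library and each bar the mean of 3. Four-cell libraries with α-amanitin all sit at 0 FPKM, Tcstv3 is at 385 to 539 FPKM in the two-cell set R, and D1 is the highest D library for every gene.

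In the replication experiment, all 7 genes were found in every library, and their levels differed widely between pools of the same group. Usp17lb had 13.3, 22.2 and 85.5 FPKM in DR1, DR2 and DR3, and 523, 9.93 and 2.39 FPKM in D1, D4 and D5. Tcstv3 had 5.14, 109 and 4.16 FPKM in DR1, DR2 and DR3, and 498, 118 and 2.54 FPKM in D1, D4 and D5. The groups overlapped for all 7 genes, as they did for most genes, with 0.0137% of those tested higher in all DR than in all D libraries and 0.975% lower. Within D, the highest library exceeded the lowest 219-fold for Usp17lb and 196-fold for Tcstv3, and within DR 6.42-fold and 26.3-fold.

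The summed level of the 5 Usp17l genes was 1040 FPKM in D1, 50.1 in D4 and 5.16 in D5, against 15.9, 51 and 93.6 FPKM in DR1, DR2 and DR3. That of the 2 Tcstv genes was 676, 128 and 2.71 FPKM in the same D libraries, against 8.80, 117 and 9.91 FPKM in the DR libraries. D1 was the highest library for each of the 7 genes, and D5 held the lowest summed level of both families. The families did not follow each other in DR, where DR3 had the most Usp17l and DR2 the most Tcstv. In DR2 and D4, Tcstv3 alone exceeded the sum of all Usp17l genes, as it did in no other library of the experiment. Embryo markers summed to 4580 FPKM in D1, within the range of 3390 to 5750 FPKM of the other 5 libraries. ERCC spike-ins, RNAs of known amount added to each sample, made up 0.0458% of the FPKM of D1 and 0.112% to 1.84% in the others. The part of the Zscan4 level and of the spike-in share of D1 in these values was not tested.

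After scaling to 19 of these spike-ins, the log2 difference, DR minus D, ranged from -3.99 (Usp17ld, SE 2.10) to -1.70 (Usp17lb, SE 2.31), and adjusted p was 0.713 for each of the 7 genes. None of them was called, as was none of the 14570 genes tested (0% called higher, 0% called lower). In that fit, limma gave 88 genes, 0.604%, an unadjusted p under 0.05, and the median of all genes was -1.41. With FPKM as deposited that median was 0.02, and the members ranged from -2.36 (Usp17ld) to 0.19 (Usp17lb). Without D1, the scaled difference was 1.54 for Usp17lb, 1.03 for Usp17la and 0.19 for Usp17le, and stayed below 0 for the other 4 genes, from -1.81 for Usp17ld to -0.27 for Tcstv1. Without D5 it was below 0 for all 7, from -7.17 for Tcstv3 (adjusted p = 0.0543) to -4.38 for Usp17la (adjusted p = 0.141). In the scaled fit, standard errors of 1.90 to 2.31 left differences of several log2 units undetectable. Spike-in factors ran from 0.09445 (D1) to 5.649 (D5). Usp1 varied little between pools, at 111 ± 2.28 FPKM in DR and 86.7 ± 3.08 FPKM in D (SD), yet had an SE of 2.4. The part of the scaling in these errors was not tested.

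**Figure D3:**
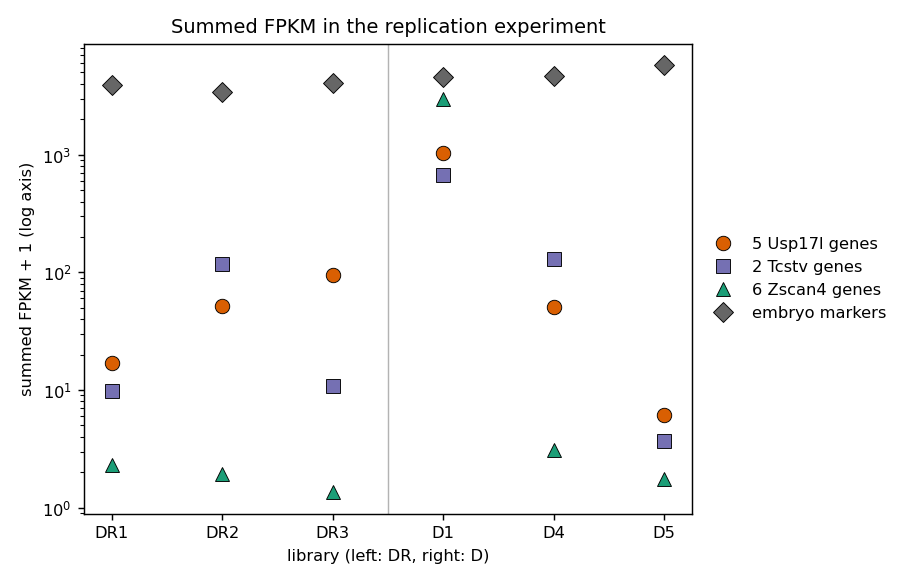
Summed FPKM + 1 on a log axis (vertical) of the Usp17l genes (circles), Tcstv genes (squares), Zscan4a to Zscan4f (triangles) and embryo markers (diamonds) in the 6 replication libraries (horizontal). Zscan4 genes reach 2960 FPKM in D1 and at most 2.07 FPKM elsewhere, while embryo markers stay between 3390 and 5750 FPKM.

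In two-cell NT embryos, the highest levels without α-amanitin were again those of Tcstv3 and Usp17lb. Usp17lb had 130, 60.6 and 11.6 FPKM in NT1, NT2 and NT3 and 55.3, 118 and 185 FPKM in R3, r1 and r2. With α-amanitin it had 0.136, 3.89 and 2.10 FPKM in Am1, Am2 and Am3 and 0.311, 0 and 5.59 FPKM in RAm1, RAm2 and RAm3. The lowest untreated library, NT3, was still above the highest treated one, RAm3, a pattern shared by 35.4% of all genes tested after spike-in scaling.

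Usp17lb rose without the drug by 5.93 on the log2 scale (SE 0.72, limma after spike-in scaling, adjusted p = 1.8e-05, n = 6 per group). In this fit, 34.2% of the 17196 genes tested were called higher without α-amanitin, 0.163% were called lower, and the median of all genes was 1.49. With FPKM as deposited that median was 0.67 and Usp17lb stood at 4.94 (adjusted p = 0.000165). Of the 7 members, 6 were tested and 5 were called higher. All 6 had an adjusted p under 0.05, as did 73% of all genes in either direction. Myoblast markers summed to 80.4 to 1640 FPKM without and 306 to 2250 FPKM with α-amanitin, mostly S100a4, and the other 9 summed to 10.9 to 418 FPKM without and 39.4 to 90.3 FPKM with it. Their part in these results was not tested. Apart from Usp17ld and Usp17le, the tested members would have met the filter in the treated libraries alone.

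Usp17lc and Usp17ld were lower. Without α-amanitin, Usp17lc ranged from 1.06 to 14.8 FPKM (median 9.84) and Usp17ld from 0.572 to 16.9 FPKM (median 9.65). With it, Usp17lc ranged from 0 to 2.26 FPKM (median 0.806) and Usp17ld from 0 to 1.04 FPKM (median 0.34). For both genes R3 was the lowest untreated library and RAm1 the highest treated one, and the groups overlapped in FPKM as deposited but not after spike-in scaling. Their log2 changes were 3.19 (SE 0.50, adjusted p = 9.42e-05) and 3.25 (SE 0.52, adjusted p = 0.000113). Usp17ld met the filter through the untreated libraries and so had to differ once tested, as had Usp17le. The near-identical Usp17lc and Usp17ld may share reads, so their values are not independent.

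Usp17le and Usp17la were the lowest members. Usp17le had 0.275 to 3.00 FPKM without (median 1.58) and 0 to 1.23 FPKM with α-amanitin (median 0.0478), and passed the adjusted p but not the 4-fold limit (log2 change 1.66, SE 0.37, adjusted p = 0.000967). With median-of-ratios scaling its adjusted p was 0.107 (log2 change 0.71). Usp17la had 0.422 to 1.35 FPKM without (median 0.804) and at most 0.0796 FPKM with α-amanitin. It was too low for the test, its groups did not overlap, and its scaled mean was at least 15.7-fold higher against 3 reads in each treated library (two-sided exact permutation test, p = 0.00216, which is the lowest value that 6 against 6 libraries allow).

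Tcstv3, with 385, 427 and 539 FPKM in R3, r1 and r2, reached levels above any Usp17l gene. In the other untreated set it had 16.4, 61.3 and 16 FPKM in NT1, NT2 and NT3. With α-amanitin it had 1.84, 2.38 and 6.55 FPKM in Am1, Am2 and Am3 and 0.387, 1.51 and 0.327 FPKM in RAm1, RAm2 and RAm3. The 2 groups did not overlap, and the 2 untreated sets lay apart from each other. Over all 12 libraries, Tcstv3 rose by 6.37 on the log2 scale without the drug (SE 0.95, adjusted p = 7.44e-05).

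Tcstv1 had 2.15, 34.5 and 6.10 FPKM in NT1, NT2 and NT3 and 44.2, 87.7 and 41.3 FPKM in R3, r1 and r2. Tcstv1 was counted in every library with α-amanitin, with 5.08, 0.581 and 2.23 FPKM in Am1, Am2 and Am3 and 4.06, 4.35 and 5.28 FPKM in RAm1, RAm2 and RAm3. The read counts behind these values were fractional, from 7.58 (Am2) to 53.66 (RAm2), and how the fractions arose is not stated. Treated four-cell libraries held no read of it, but they had fewer counted reads and whole counts only, so the stages cannot be compared on this. NT1 lay below 5 of the 6 treated libraries, so the groups overlapped in FPKM as deposited. Tcstv1 rose by 3.62 (SE 0.76, adjusted p = 0.000629), and the call was lost with median-of-ratios scaling (1.70, adjusted p = 0.0894).

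**Figure D4:**
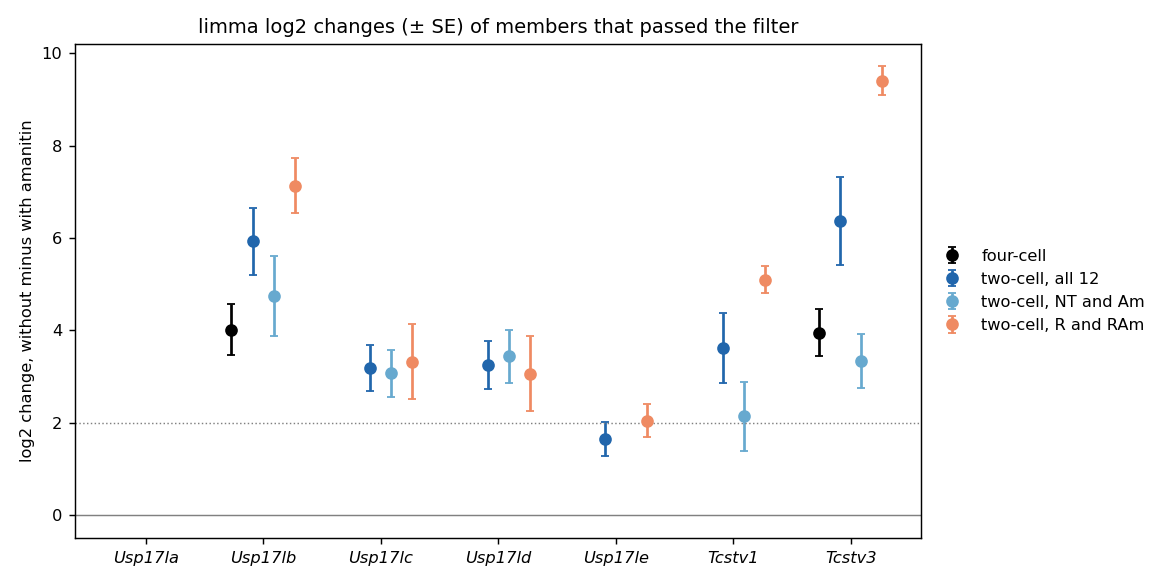
Log2 change without minus with α-amanitin (vertical axis, limma, bars are ± SE, dotted line 4-fold) of the members that passed the filter (horizontal), in four-cell embryos, in all 12 two-cell libraries and in each two-cell column set. Tcstv3 stands at 3.34 in NT with Am and at 9.40 in R with RAm, while Usp17lc and Usp17ld lie between 3.06 and 3.44 in both.

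The effect of α-amanitin differed between the two-cell column sets for the Tcstv genes. This split was made after the data were seen. In NT with Am alone 9.18% of genes were called higher without the drug, and in R with RAm alone 63.2%. Within NT and Am, Tcstv3 changed by 3.34 (SE 0.58, adjusted p = 0.00342, n = 3 per group) and within R and RAm by 9.40 (SE 0.31, adjusted p = 6.12e-07). The difference of the changes, R minus NT, was 6.07 (SE 0.71, adjusted p = 2.22e-05). It was 5.40 with FPKM as deposited (adjusted p = 0.000101) and 4.81 with median-of-ratios scaling (adjusted p = 0.000593). The change was larger in R for 50.5% of all genes and smaller for 2.72%, with a median difference of 1.42 over all genes. It was larger in R for 36% of genes with FPKM as deposited and for 19.8% with median-of-ratios scaling. For Tcstv1 the difference was 2.96 (SE 0.94, adjusted p = 0.0162), but 1.76 with FPKM as deposited (adjusted p = 0.183) and 0.70 with median-of-ratios scaling (adjusted p = 0.63).

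For the 4 Usp17l genes tested, the differences between the sets ran from -0.38 (Usp17ld, SE 1.07) to 2.39 (Usp17lb, SE 1.24), with adjusted p from 0.117 to 0.853. Their untreated levels overlapped between the sets, with 67.5 ± 59.7 FPKM in NT and 120 ± 64.9 FPKM in R for Usp17lb (SD, n = 3 each) and 8.48 ± 2.78 and 9.89 ± 7.66 FPKM for Usp17lc. Tcstv3 stood at 31.2 ± 26.0 FPKM in NT and 450 ± 79.3 FPKM in R. Treated libraries of the sets differed in more than these genes, since Dppa3 stood at 6620 to 7580 FPKM in Am1, Am2 and Am3 and at 689 to 1300 FPKM in RAm1, RAm2 and RAm3, while the other 9 embryo markers summed to 904 to 2280 FPKM in the latter, above each of the former. The part of these gaps in the results was not tested, and since the sets may be the recipient ages, set and age cannot be told apart.

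FPKM accounts for gene length but not for windows shared between genes. Windows of 50 bases found in no other gene made up 78.6% in Usp17lb but 55.3% in Usp17lc and 48.9% in Usp17ld. The part of this in the results was not tested. With that limit, the levels of the genes can be put in order within the untreated libraries. In four-cell embryos it ran from Usp17lb (18.4 ± 13.6 FPKM, SD, n = 3) and Tcstv3 (16.7 ± 11.5) over Usp17ld (2.72 ± 3.00), Usp17lc (2.38 ± 3.98), Usp17la (2.02 ± 1.91) and Tcstv1 (1.01 ± 0.237) to Usp17le (0.533 ± 0.699). No neighbours in this order differed beyond their SDs, but the genes were measured in the same libraries. Tcstv3 was above Usp17ld in each of S15, S17 and S7 (7.89 against 6.18, 12.6 against 0.825 and 29.7 against 1.16 FPKM). No other neighbours kept the same order in all of them. In two-cell embryos it ran from Tcstv3 (241 ± 236 FPKM, SD, n = 6) over Usp17lb (93.5 ± 62.6), Tcstv1 (36 ± 31), Usp17lc (9.19 ± 5.21), Usp17ld (8.66 ± 5.60) and Usp17le (1.63 ± 1.03) to Usp17la (0.863 ± 0.417). Neighbours lay within their SDs of each other, save Usp17ld and Usp17le, whose ranges over the libraries still overlapped. Usp17lb was above Tcstv1 in every untreated two-cell library, and no other neighbours kept the same order throughout. The two-cell order pools the column sets. By means, Tcstv3 came first in R (450 against 120 FPKM of Usp17lb) but second in NT (31.2 against 67.5 FPKM). Its second place rested on NT1 (16.4 against 130 FPKM), since Tcstv3 was above Usp17lb in NT2 (61.3 against 60.6 FPKM) and NT3 (16 against 11.6 FPKM). Tcstv1 was above Usp17lc and Usp17ld in all 3 libraries of R, but in NT only in NT2 and NT3, and NT3 held 6.10 FPKM of it against 5.76 FPKM of Usp17lc. Levels were scaled to the counted total of each library, so this is a comparison of orders, and no test was made across tables.

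Usp17lb made up 43.5% to 94.4% of the summed Usp17l FPKM in 17 of the 19 libraries with at least 30 Usp17l reads. The 2 exceptions were D4, with 19.8% Usp17lb, 34.8% Usp17lc and 43.3% Usp17ld, and RAm1, with 6.35% Usp17lb, 46.2% Usp17lc and 25.1% Usp17le. In DR2 the shares of Usp17lc and Usp17ld were also high, at 26.3% and 24.3%. Usp17la made up from 0% (S7) to 21.8% (S17, 11 of 35 reads) in untreated four-cell libraries. It made up from 0.457% (D4) to 17.2% (D1) in the replication experiment and 0.575% to 1.87% in untreated two-cell libraries. In D1, Usp17le made up 14.7%. Tcstv3 made up 42.0% to 96.8% of the Tcstv sum in the 15 untreated libraries, which include D and DR.

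**Figure D5:**
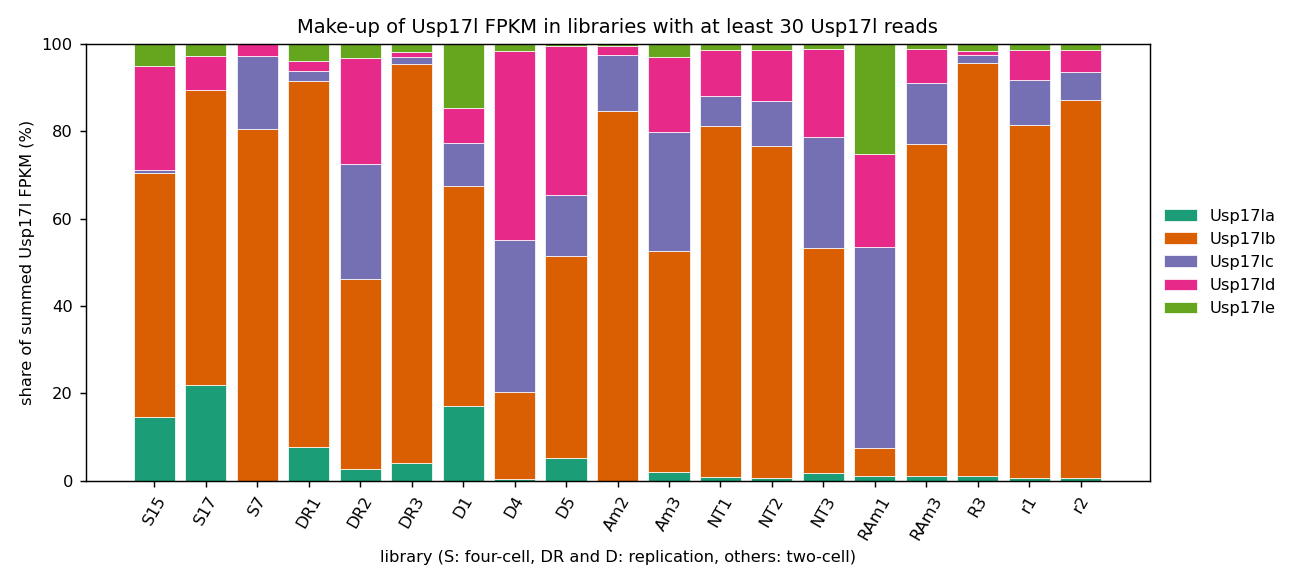
Share of each Usp17l gene (%, vertical axis) in the summed Usp17l FPKM of each library with at least 30 Usp17l reads (horizontal). Usp17lb is the largest share of each bar apart from D4 (19.8%) and RAm1 (6.35%).

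Of the 32 other genes of the two-cell programme, 16 were tested in four-cell embryos. All 16 were higher without α-amanitin and their median log2 change was 2.44 against 0.37 over all genes. Calls were made for 8 of the 16 (50%), against 6.2% of all genes, but none was left without S15 or S7 and 1 without S17. None of the 8 would have met the filter in the treated libraries alone, and Gm2016, Gm5662, Gm8332, Gm8300 and Gm13119, with no treated library at 1 FPKM, had to differ once tested. Gm2016 (5.83, SE 0.36, adjusted p = 0.00071), Gm5662 (5.54) and Gm8332 (5.22) had the largest changes. In two-cell embryos 29 were tested and 22 called higher (75.9%, against 34.2% of all genes), 4 of them having met the filter through the untreated libraries, with a median of 3.89 against 1.49 over all genes. The largest rises were those of Gm8300 (6.64, SE 0.62, adjusted p = 4.04e-06), AF067063 (6.50) and Gm2016 (6.44). AF067063 and AF067061 are neighbours of the Tcstv genes with related coding sequences, 83.1% and 95.9% identical to that of Tcstv3, and AF067061 was called as well (4.75). The Zscan4 genes, which encode zinc finger proteins and mark the two-cell burst, were not called in two-cell embryos, and with Gm12794 (1.49, adjusted p = 0.00592) they were the members of the list that were tested without being called. All 6 had changes of 0.15 to 0.56 after spike-in scaling, with adjusted p of 0.389 to 0.752, but of -0.97 to -0.52 with FPKM as deposited, with adjusted p of 0.0418 (Zscan4f) to 0.314. Summed, they stood at 40.1 to 48.3 FPKM in Am1, Am2 and Am3, above the 10 to 15.3 FPKM of NT1, NT2 and NT3. In the other set the groups overlapped, with 12.4 to 48.5 FPKM in RAm1, RAm2 and RAm3 and 15.1 to 26.1 FPKM in R3, r1 and r2. In the replication experiment 23 genes of the list were tested and none was called, with a median of -2.43 against -1.41 over all genes, and the smallest p were those of Gm12794 (-4.33, adjusted p = 0.713) and Tdpoz3 (-4.16, adjusted p = 0.713).

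Of 51 other ubiquitin-specific proteases, the wider enzyme family of Usp17l, 28 were tested in four-cell embryos and none was called, against 6.2% of all genes called higher, with a median of 0.55 against 0.37 over all genes, and the smallest p were those of Usp22, a subunit of the SAGA complex (1.69, SE 0.46, adjusted p = 0.0462), and Usp3 (1.42, SE 0.41, adjusted p = 0.0547). In two-cell embryos, 10 of 44 were called higher (22.7%, against 34.2% of all genes), with a median of 1.09 against 1.49 over all genes. The count was 2 with median-of-ratios scaling and 0 in the set NT with Am alone. Usp14, which acts on the proteasome (3.31, SE 0.64), Usp39, a splicing factor (3.29, SE 0.69), and Usp33 (3.20, SE 0.54) rose most. In the replication experiment 36 were tested and none called, and Usp28 (-1.68, adjusted p = 0.713) and Usp31 (-1.33, adjusted p = 0.713) had the smallest p.

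Of 21 regulators of the two-cell programme, 19 were tested in four-cell embryos with none called, against 6.2% of all genes called higher and 0.364% called lower. Their median was 0.31 against 0.37 over all genes, and the smallest p were those of Dppa3 (-0.54, SE 0.16, adjusted p = 0.0606) and Terf1, a telomere-binding protein (1.45, SE 0.45, adjusted p = 0.068). In two-cell embryos 9 of 20 were called higher (45%, against 34.2% of all genes), but 2 with median-of-ratios scaling and 1 in the set NT with Am alone. They were led by Dppa2 (5.41, SE 0.78, adjusted p = 5.94e-05) and Dppa4 (4.40, SE 1.00), which together activate Dux in embryonic stem cells, and the maternal factor Dppa3 (3.19, SE 0.66). In the replication experiment none of 20 was called, and Terf2 (-1.53, adjusted p = 0.713) and Dppa3 (-2.06, adjusted p = 0.713) had the smallest p. Dux itself, listed as Duxf3, was at 0 in the four-cell libraries. It was too low for the test in both other experiments, where D1 held 9.48 FPKM and the other libraries at most 1.21 FPKM (DR2).

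Genes whose levels followed those of the leading members most closely were sought among 9102 genes across the 24 libraries, which share the groups and the 3 tables described here. For Usp17lb these were Gm8300 (Pearson r of log2(FPKM + 1) over the 24 libraries 0.93, Spearman rho 0.95), Gm6803 (0.91), Gm2016 (0.91), Gm2022 (0.90) and Gm5541 (0.90). For Tcstv3 they were B020031M17Rik (0.94), Tdpoz1 (0.93), the desaturase gene Scd3 (0.92), the splicing factor gene Cwc22 (0.92) and the DNA repair gene Ercc4 (0.92). No gene was in both lists.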

How the data were processed

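RNA-seq was performed by the authors on pools of NT embryos. Paired reads of 50 and 25 bases were filtered with Trimmomatic and trimmed with Trim Galore, STAR was used for mapping to mm10, and the submitters' processing notes also name cutadapt and featureCounts. Versions are not given in the sources used here. The tables hold FPKM as deposited by the authors. All values of the four-cell table are whole multiples of 1 read, against 54.9% to 58.4% in the replication table and 47.8% to 57.2% in the two-cell table (tolerance 0.001 of the value), and how the fractions arose is not stated. In those tables, read numbers are approximate. Groups were taken from column names, of which only those of DR carry the numbers of the sample titles. Four-cell columns are named PBS or AmanitinControl, and PBS was read as without α-amanitin. D1, D4 and D5 were assigned to D by their letter. In the two-cell table the column names give the α-amanitin state, read from the letters Am, but no recipient age, and 4 columns of the replication table were not used. Libraries made with Oryx dammah donors were not used here.

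FPKM were scaled to ERCC spike-ins found in every library (19 in the replication, 47 in the two-cell table), while the four-cell table lists 0 and was used as deposited. log2(FPKM + 1) was tested with limma 3.58.1 in R 4.3.3, with a trend of variance on mean level, for genes that reached an unscaled FPKM of 1 in 3 or more libraries, with Benjamini-Hochberg adjustment over all genes of a table. The procedure was tested on simulated data. Fold changes on this scale understate changes of low genes. Where no library of a group exceeded 3 reads, folds were computed with 3 reads per library. Such limits cover counting error only. Sequences were aligned with Biopython 1.88, and coding sequences are the longest of each gene in GENCODE vM21. Protein sequences are not analysed here.

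The 7 genes and the gene lists were chosen with earlier results of these data known. Named besides the members were, for each list and comparison, the 3 called genes with the largest rise and the 3 with the largest fall or, where none was called, the 2 with the smallest p, and the 5 genes most correlated with the highest member of each family. The Zscan4 genes, AF067061 and Duxf3 were named in addition, after their values were seen. Alternatives were a pseudocount of 0.1, no filter, other scalings and leaving out each library, with fits by column set added after seeing the data.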

Additional observations from a re-analysis of the deposited data

Results flagged for a closer look

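The changes of both Tcstv genes differed between sets of two-cell libraries by a test of the difference itself. The change of Tcstv3 without against with α-amanitin was larger by 6.07 (log2) in the columns R and RAm than in NT and Am, and that of Tcstv1 was larger by 2.96. The first was also found with FPKM as deposited and with median-of-ratios scaling, the second with neither. A difference was common in this experiment, since the change was larger in R for 50.5% of all genes, with a median difference of 1.42. The sets come from column names, and which recipient age each holds is not identified.

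Single libraries lay far from the other 5 of their group in 2 cases. RAm1 held 1.23 FPKM of Usp17le where the other libraries with α-amanitin held 0 to 0.121 FPKM, and Am3 held 6.55 FPKM of Tcstv3 where the others held 0.327 to 2.38 FPKM. Chance alone marks about 1 group in 20 in this way. Groups of 3 libraries, D1 among them, were not examined by this measure.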

How the results depend on the processing

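The direction of change without against with α-amanitin held for all 7 genes in two-cell embryos under every alternative run. In four-cell embryos it could not turn, since all 7 stood at 0 in the treated libraries. In the replication experiment, where no gene was called, the sign of Usp17lb turned with median-of-ratios scaling (0.14), with FPKM as deposited (0.19) and without D1 (1.54), and that of Usp17la (1.03) and Usp17le (0.19) turned without D1. Leaving out 1 library at a time, these 3 ranged from -4.43 to 1.54 (Usp17lb), -4.38 to 1.03 (Usp17la) and -5.13 to 0.19 (Usp17le), with the lowest values without D5. The difference between the two-cell column sets turned for Usp17lc with FPKM as deposited (-0.56) and with median-of-ratios scaling (-1.01), and for Usp17le with the latter (-0.17). The cause was not tested.

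Without the filter, four-cell genes called higher numbered 259, those lower 5, and two-cell programme genes called 5, and two-cell genes called lower numbered 17. With a pseudocount of 0.1, two-cell genes called higher numbered 10115, those lower 150, and regulators 14. With median-of-ratios scaling the two-cell numbers were 878 higher, 769 lower, 2 proteases and 2 regulators, and with FPKM as deposited 1906 higher, 272 lower, 4 proteases and 3 regulators. The set NT with Am alone gave 1311 higher, 0 proteases and 1 regulator, and the set R with RAm alone gave 9099 higher, 165 lower, 18 proteases and 14 regulators.

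Leaving out 1 library at a time, four-cell genes called higher numbered 55 (without S7) to 836 (without S16), those lower 5 (without S17) to 53 (without S16), two-cell programme genes 0 (without S15) to 9, and proteases and regulators 0 to 1 each. Replication genes called lower numbered 0 to 1, and two-cell genes called lower 13 (without RAm1) to 59 (without Am3). No paired analysis was possible because the four-cell columns share no numbers and the D and DR columns share only 1. In the two-cell table, same-numbered columns of a set had deviations correlated by 0 to 0.08, so the numbers were not taken as pairs. A replicate block on them, chosen after seeing the data, gave 5876 genes higher and 28 lower and changed no call of a member. The count tests foreseen (edgeR and DESeq2) were not run, since the tables hold FPKM, and a fit within each recipient age was not run, since the columns show no age.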
